A study of Mus musculus with 47 samples.

Results

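Ddah1, Foxq1 and Hao2 are 3 of the 20320 genes in a count table of mouse liver, and all 3 passed the filter on low counts that kept 16650 genes. They were chosen by their measured diet change in these libraries, above all in NZO/HlLtJ, so every diet value of the 3 genes below is a description with no test. The table held 47 libraries from wild-type NZO/HlLtJ, CAST/EiJ and C57BL/6J mice of both sexes. Mice received a diet with 44% fat plus fiber, described as high in fat and sugar, or a control diet with 10% fat plus fiber, from week 6 of age, and livers were taken in week 15. The 12 groups of strain, sex and diet held 4 libraries each, or 3 for males of CAST/EiJ on 10% fat, and library totals were about 21600000 to 47800000 counts. No group received a further treatment. The labels do not say that each library came from a separate animal, so p-values here measure the spread between these libraries. Replicate numbers below are not in the labels and follow the order of the samples within each group. NZO/HlLtJ is an inbred strain with polygenic obesity whose males are prone to diabetes, CAST/EiJ descends from wild mice of another subspecies, and C57BL/6J is the common laboratory strain.

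Ddah1 (ENSMUSG00000028194) encodes dimethylarginine dimethylaminohydrolase 1, which breaks down asymmetric dimethylarginine, a methylated arginine released from proteins that inhibits nitric oxide synthases. Liver and kidney are known as the main sites of this clearance. Foxq1 (ENSMUSG00000038415) encodes a forkhead transcription factor, and in mouse liver it has been described as acting on glucose production. Hao2 (ENSMUSG00000027870) encodes a peroxisomal flavin enzyme that oxidises long-chain 2-hydroxy acids, a relative of the glycolate oxidase encoded by Hao1.

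In the deposited GRCm38 coordinates Ddah1 lies on chromosome 3 from 145758675 to 145894277 on the plus strand, and its first GENCODE M21 transcript has 6 exons. Hao2 lies on chromosome 3 from 98874521 to 98893239 on the minus strand with 9 exons. Foxq1 lies on chromosome 13 from 31558324 to 31560976 on the plus strand as a single exon, while GENCODE M21 starts that gene at 31556134. The 250 bases before the RefSeq start of Ddah1 (chr3:145758442-145758691, plus strand) and Hao2 (chr3:98893231-98893480, minus strand), on GRCm38.p6, are shown because the levels of both genes differed widely between strains and sexes and Foxq1 is a forkhead factor. Capitals mark the forkhead core TGTTTA.
Ddah1: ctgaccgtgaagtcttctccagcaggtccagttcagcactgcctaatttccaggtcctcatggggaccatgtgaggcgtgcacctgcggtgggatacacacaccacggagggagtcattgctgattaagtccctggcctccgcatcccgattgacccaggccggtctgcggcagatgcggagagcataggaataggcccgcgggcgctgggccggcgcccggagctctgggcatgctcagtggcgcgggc
Hao2: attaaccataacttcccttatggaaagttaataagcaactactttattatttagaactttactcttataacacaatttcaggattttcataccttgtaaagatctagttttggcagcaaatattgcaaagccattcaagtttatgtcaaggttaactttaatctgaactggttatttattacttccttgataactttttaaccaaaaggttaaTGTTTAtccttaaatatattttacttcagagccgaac
The core, searched on both strands, occurred 1 time before Hao2, with its first base at position -37 from the start, and in no place before Ddah1. It was present in 12.03% of the 32851 mouse windows of this length. The searches for the E-box CACGTG, the HNF1 motif (GTTAAT, any base, ATTAA) and the direct repeat (AGGTCA, any base, AGGTCA) gave no match in either window, and these letters were present in 6.02%, 0.0609% and 0.0335% of windows. A match is a run of letters and not a measured binding site.

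The diet change in NZO/HlLtJ lay almost entirely in males. Levels below are CPM, counts scaled to a common library total, with TMM factors as a correction for library composition. Ddah1 had 78.6, 50.8, 85.2 and 80.1 CPM in NZO/HlLtJ males on 44% fat, against 11.7, 8.75, 16.8 and 25.5 CPM in NZO/HlLtJ males on 10% fat. The lowest library on 44% fat was above the highest on 10% fat, and the means were 73.7 ± 15.5 and 15.7 ± 7.35 CPM (SD, n = 4 each). That is a ratio of means of 4.69 and a log2 fold change of 2.23 with a standard error of 0.20. Foxq1 had 3.38, 2.90, 2.53 and 2.90 CPM in NZO/HlLtJ males on 44% fat, against 60.3, 23.8, 14.8 and 43.1 CPM in those on 10% fat. The 4 libraries on 44% fat lay close together and the 4 on 10% fat were widely spread, with means of 2.93 ± 0.346 and 35.5 ± 20.3 CPM and a log2 fold change of -3.61 with a standard error of 0.60. Hao2 had 1.76, 0.529, 5.01 and 4.73 CPM in NZO/HlLtJ males on 44% fat, against 0.190, 0.207, 0.166 and 0.461 CPM in those on 10% fat. Its ranges did not overlap either, but levels were low, with 21 to 198 counts per library on 44% fat and 6 to 17 on 10% fat, and the log2 fold change was 3.57 with a standard error of 0.56. In this contrast 2.68% of the 16650 genes were called at an adjusted p under 0.05, and nothing is read from the 3 genes against that share because the contrast was used to choose them.

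**Figure D1:**
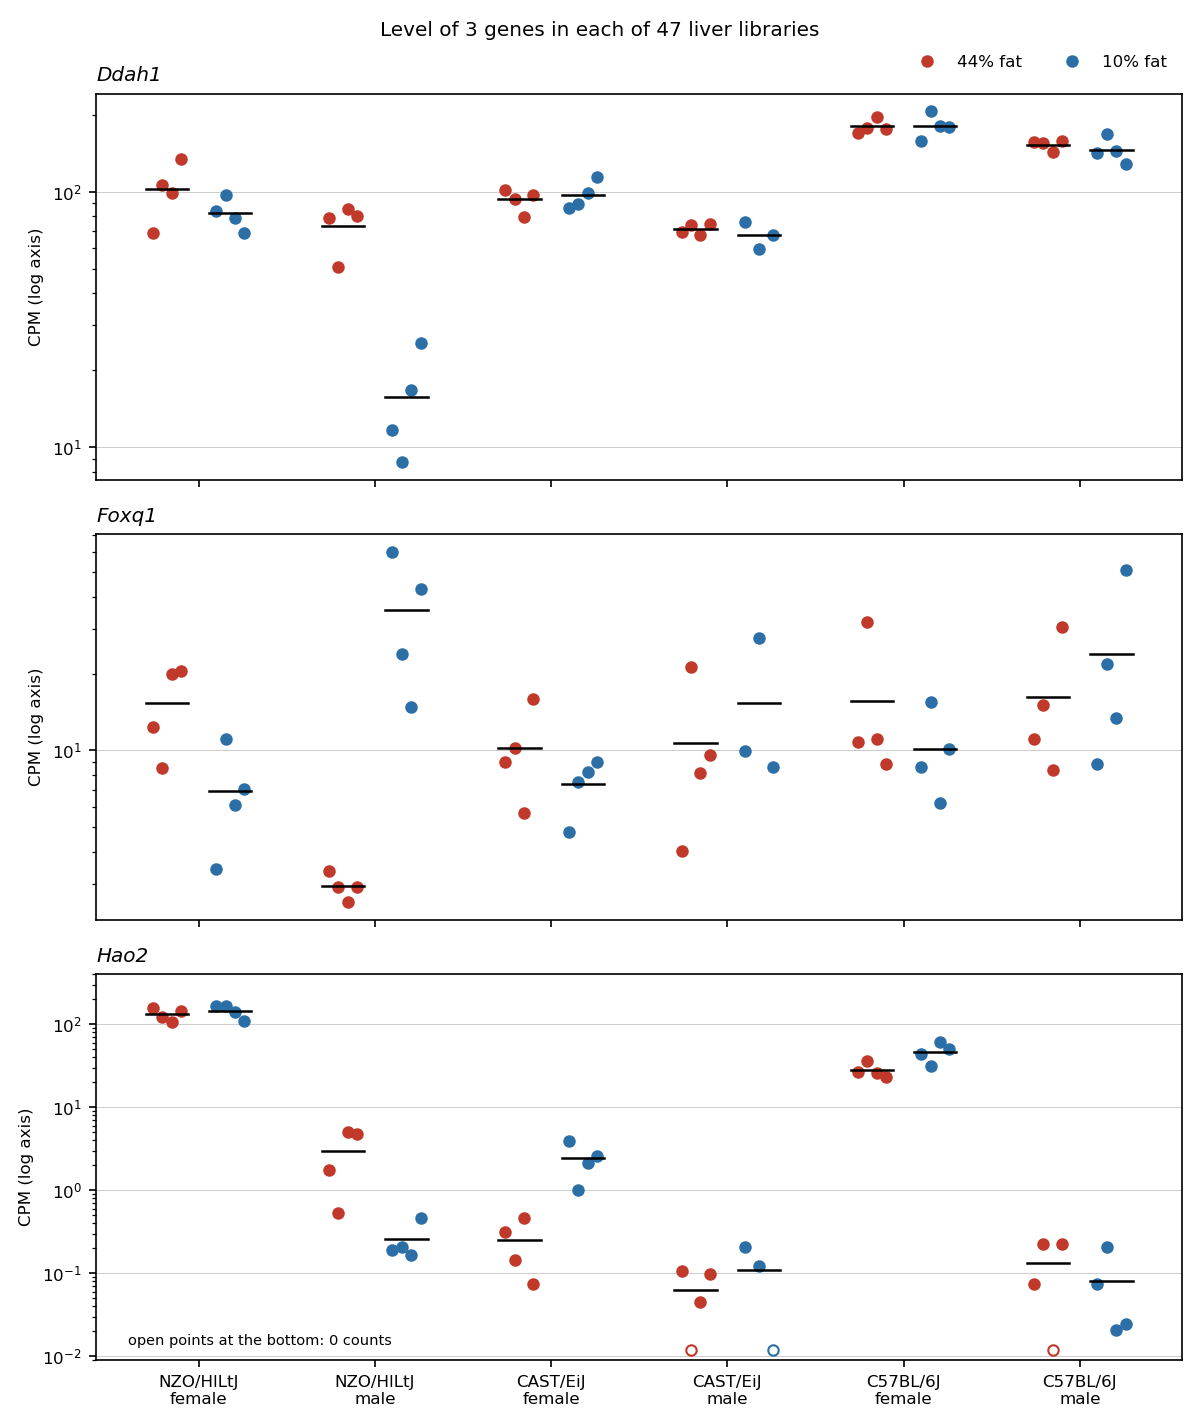
CPM of Ddah1, Foxq1 and Hao2 (log axes) in each of 47 liver libraries by strain and sex, with 44% fat left of 10% fat and a bar at each group mean. NZO/HlLtJ males on 10% fat hold the lowest Ddah1 values (8.75 to 25.5 CPM), and NZO/HlLtJ males on 44% fat hold the lowest Foxq1 values (2.53 to 3.38 CPM).

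In NZO/HlLtJ females the same diets gave small or opposite differences. Ddah1 had 69.1, 106, 99.1 and 134 CPM in females on 44% fat, against 84.2, 97.4, 78.6 and 68.7 CPM in females on 10% fat, with a log2 fold change of 0.31 and a standard error of 0.19. Foxq1 had 12.3, 8.52, 19.9 and 20.4 CPM in females on 44% fat, against 3.41, 11.03, 6.09 and 7.04 CPM in females on 10% fat, a log2 fold change of 1.15 with a standard error of 0.54. Both pairs of ranges overlapped, and for Foxq1 the sign was the opposite of that in males. Hao2 was abundant in females, with 158, 122, 105 and 144 CPM on 44% fat against 164, 163, 140 and 109 CPM on 10% fat, and its log2 fold change was -0.13 with a standard error of 0.34. The diet change of males minus that of females in NZO/HlLtJ was 1.92 for Ddah1, -4.76 for Foxq1 and 3.69 for Hao2 on the log2 scale, with standard errors of 0.27, 0.80 and 0.67. Averaged over the sexes, the NZO/HlLtJ diet changes of 1.27, -1.23 and 1.72 stand for neither sex.

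The label of a change strongest in NZO/HlLtJ held for Ddah1 and Foxq1 in males, and Hao2 had a second large change elsewhere. In CAST/EiJ females Hao2 had 0.311, 0.146, 0.462 and 0.0746 CPM on 44% fat, against 3.96, 1.01, 2.11 and 2.58 CPM on 10% fat. These ranges did not overlap, but levels were low, with 3 to 18 counts per library on 44% fat and 36 to 123 on 10% fat. The log2 fold change of -3.25 with a standard error of 0.58 had the opposite sign to that in NZO/HlLtJ males and a similar size. Within that contrast 0.198% of genes were called, and over both sexes 0.895% in CAST/EiJ and 0.991% in C57BL/6J. In C57BL/6J females Hao2 averaged 28.0 ± 5.68 CPM on 44% fat and 46.7 ± 12.6 CPM on 10% fat, with overlapping ranges and a log2 fold change of -0.74 with a standard error of 0.34. Ddah1 diet changes in CAST/EiJ and C57BL/6J lay between -0.06 in CAST/EiJ females and 0.08 in CAST/EiJ males, and Foxq1 changes between -0.55 in C57BL/6J males and 0.63 in C57BL/6J females, with overlapping ranges in all 4 sets for both genes. Hao2 in the males of both strains was too low for a diet change to be read, with at most 10 counts in a library on 44% fat and at most 8 on 10% fat.

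**Figure D2:**
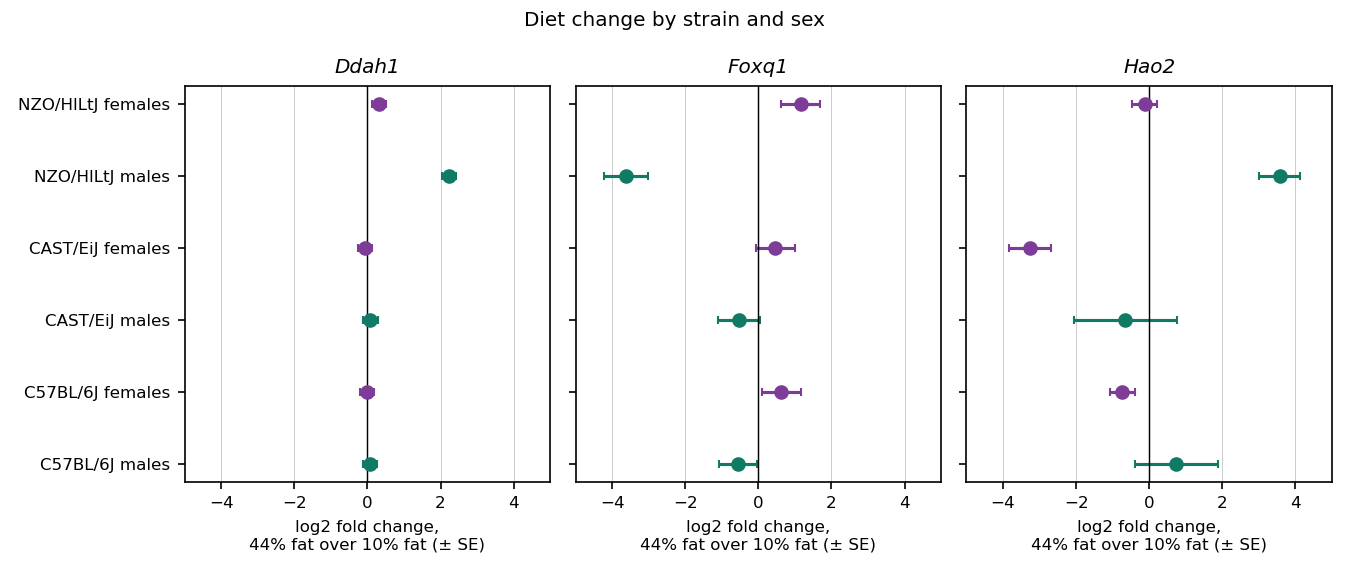
Log2 fold change of 44% fat over 10% fat with its standard error for Ddah1, Foxq1 and Hao2 in the females (purple) and males (green) of each strain. The large changes are those of NZO/HlLtJ males (2.23, -3.61 and 3.57) and of Hao2 in CAST/EiJ females (-3.25).

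Other measures moved with diet in NZO/HlLtJ males. The summed level of the 9 hepatocyte markers in the table was 80484 to 97808 CPM on 44% fat and 104062 to 129019 CPM on 10% fat. Of these 9 markers 3 were called lower in males, where 2.68% of all genes were called. They were Alb, Apoa1 and Fgb, which encode albumin, an apolipoprotein and a fibrinogen chain. The median log2 fold change of the 9 in males was -0.47, against 0.00 over all genes tested. NZO/HlLtJ females had a median of -0.31 with 8 of the 9 below 0. In females edgeR called 0 of the 9 and DESeq2 called 2 lower. Over both sexes edgeR called 5 lower, where 5.64% of all genes were called. In a bulk sample fewer cells of a type and less RNA per cell cannot be told apart, and the part of this shift in the 3 genes' values was not tested. The summed stellate, Kupffer cell, endothelial, cholangiocyte and lymphocyte markers overlapped between the diets in these males, as did the pancreatic acinar markers, at 3.39 to 4.89 CPM on 44% fat and 3.12 to 13.1 CPM on 10% fat. Most of that sum was Cela1. The other 5 acinar genes averaged 0.0759 to 0.222 CPM in these males on 44% fat and 0 to 0.0327 CPM on 10% fat, where Ctrb1, Cela2a and Amy2a5 had no count. Of the 6, edgeR called 0 with 0 at an unadjusted p under 0.05, and DESeq2 called 3 higher, and their part in the members' values was not tested. The acinar gene Cpa1 reached 20 CPM or more in 5 libraries, none of them NZO/HlLtJ. Of 7 kidney tubule markers, relevant because Ddah1 and Hao2 are also kidney genes, only Lrp2 was in the table, at 0.987 to 2.69 CPM on 44% fat and 0.924 to 1.36 CPM on 10% fat in NZO/HlLtJ males.

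Libraries fall into 3 runs of consecutive sample identifiers, which may or may not be batches. In NZO/HlLtJ only the first run, with 2 libraries of each group, holds all 4 groups, and in the other two runs diet and sex cannot be told apart in this strain. Within the first run the log2 fold changes in NZO/HlLtJ males were 2.66 for Ddah1, -3.76 for Foxq1 and 2.36 for Hao2, with standard errors of 0.31, 0.80 and 0.68. In NZO/HlLtJ females of that run they were -0.05, 0.53 and -0.23, with standard errors of 0.29, 0.71 and 0.33, so the Ddah1 sign turned and the Foxq1 value was below its standard error. The Hao2 values of males on 44% fat were 1.76 and 0.529 CPM in that run, and 5.01 and 4.73 CPM in the second. Hao2 in CAST/EiJ females changed by -3.65, -1.68 and -4.93 in the first, the second and the third run.

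Each gene had its own order of levels over the 12 groups. Ddah1 was highest in C57BL/6J, at 180 ± 11.1 CPM in females on 44% fat and 181 ± 19.7 CPM in females on 10% fat, with C57BL/6J males next. The 7 groups that followed, from 102 CPM in NZO/HlLtJ females on 44% fat to 67.8 CPM in CAST/EiJ males on 10% fat, each overlapped the next. NZO/HlLtJ males on 10% fat stood below all of them with no overlap. The Foxq1 groups from NZO/HlLtJ males on 10% fat (35.5 CPM) down to NZO/HlLtJ females on 10% fat (6.89 CPM) each overlapped the next. Only NZO/HlLtJ males on 44% fat, at the bottom, did not overlap the group above, and the gap was narrow. Their highest library had 3.38 CPM, and the lowest library of NZO/HlLtJ females on 10% fat had 3.41 CPM. Hao2 ran from 144 CPM in NZO/HlLtJ females on 10% fat to 0.0622 CPM in CAST/EiJ males on 44% fat. Gaps without overlap separated NZO/HlLtJ females from C57BL/6J females, those from NZO/HlLtJ males on 44% fat and CAST/EiJ females on 10% fat, and those from the other 6 groups. In 3 male libraries of CAST/EiJ and C57BL/6J no Hao2 read was counted, which allows up to 0.0960 CPM at 3 counts (counting error only).

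Strain differences averaged over sexes and diets were not used to choose the genes and were tested, except where called a description. The NZO/HlLtJ averages do include the males whose diet change chose the genes. Ddah1 averaged 68.4 ± 36.5 CPM in NZO/HlLtJ (SD, n = 16), 83.4 ± 15.4 CPM in CAST/EiJ (n = 15) and 165 ± 20.8 CPM in C57BL/6J (n = 16). It was lower in CAST/EiJ than in C57BL/6J by a log2 fold change of -1.01 with a standard error of 0.10 (edgeR adjusted p = 4.79e-12). The value of -1.55 in NZO/HlLtJ against C57BL/6J, with a standard error of 0.10, is a description, since its size includes the NZO/HlLtJ males on 10% fat. NZO/HlLtJ females were also below C57BL/6J females, at 102 against 180 CPM on 44% fat and 82.2 against 181 CPM on 10% fat. Males on 44% fat had 73.7 CPM in NZO/HlLtJ against 153 CPM in C57BL/6J. The value of -0.54 in NZO/HlLtJ against CAST/EiJ is a description, since it rests on the NZO/HlLtJ males on 10% fat, and the NZO/HlLtJ females, at 102 CPM on 44% fat and 82.2 CPM on 10% fat, overlapped the CAST/EiJ females, at 93.2 and 97.1 CPM. Hao2 averaged 70.0 ± 72.4 CPM in NZO/HlLtJ, 0.748 ± 1.19 CPM in CAST/EiJ and 18.7 ± 21.3 CPM in C57BL/6J, and the SDs are large because both sexes are in each mean. It was higher in NZO/HlLtJ than in CAST/EiJ by 5.43 with a standard error of 0.42 (edgeR adjusted p = 4.64e-14). The value of 2.51 in NZO/HlLtJ against C57BL/6J, with a standard error of 0.33, is a description. Its size includes the males on 44% fat whose diet change chose Hao2, at 3.01 CPM in NZO/HlLtJ against 0.131 CPM in C57BL/6J. NZO/HlLtJ females were also above C57BL/6J females, at 132 against 28.0 CPM on 44% fat and 144 against 46.7 CPM on 10% fat. Males on 10% fat had 0.256 against 0.0814 CPM, with overlapping ranges. Hao2 was lower in CAST/EiJ than in C57BL/6J by -2.92 with a standard error of 0.55 (edgeR adjusted p = 1.75e-05). Strain changed much of the table, since 49.1% of genes were called between NZO/HlLtJ and C57BL/6J, 68.1% between NZO/HlLtJ and CAST/EiJ, and 67.9% between CAST/EiJ and C57BL/6J, so a call between strains is common in this table.

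Foxq1 did not pass the threshold in any strain comparison. Its log2 fold change was -0.62 in NZO/HlLtJ against C57BL/6J with a standard error of 0.27 (edgeR adjusted p = 0.0546), -0.58 in CAST/EiJ against C57BL/6J with a standard error of 0.27 (edgeR adjusted p = 0.0601) and -0.04 in NZO/HlLtJ against CAST/EiJ with a standard error of 0.28 (edgeR adjusted p = 0.901). DESeq2 put the first and second just past the threshold (DESeq2 adjusted p = 0.0327 and 0.0449). The first includes the males on 44% fat whose diet change chose Foxq1, at 2.93 CPM in NZO/HlLtJ against 16.2 CPM in C57BL/6J. Females on 44% fat had 15.3 against 15.7 CPM, males on 10% fat 35.5 against 23.8 CPM and females on 10% fat 6.89 against 10.1 CPM. Nothing is therefore read from the side of the threshold on which the first fell. Within the first run of identifiers the value for NZO/HlLtJ against C57BL/6J was 0.02, while those of Ddah1 and Hao2 were -1.70 and 2.35. In that run NZO/HlLtJ against CAST/EiJ gave -0.79 for Ddah1, 0.63 for Foxq1 and 4.33 for Hao2. Ddah1 in CAST/EiJ against C57BL/6J was -0.92, -1.21 and -0.92 in the first, the second and the third run, Foxq1 was -0.60, -0.42 and -0.60, and Hao2 was -1.99, -3.96 and -4.01.

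Hao2 was higher in females of all 3 strains when averaged over diets, but in CAST/EiJ on 44% fat the sexes overlapped. Averaged over diets it had 138 ± 23.6 CPM in NZO/HlLtJ females and 1.63 ± 2.07 CPM in NZO/HlLtJ males (SD, n = 8 each), a log2 fold change of 7.28 with a standard error of 0.35 (edgeR adjusted p = 1.88e-18). C57BL/6J females had 37.4 ± 13.5 CPM and C57BL/6J males 0.106 ± 0.0966 CPM, with a log2 fold change of 8.43 and a standard error of 0.42 (edgeR adjusted p = 8.25e-18). In CAST/EiJ the difference was smaller, at 1.33 ± 1.41 CPM in females (n = 8) and 0.0827 ± 0.0743 CPM in males (n = 7), with a log2 fold change of 3.19 and a standard error of 0.68 (edgeR adjusted p = 3.74e-04). The ratio of females to males was 44.0 in NZO/HlLtJ, 3.99 in CAST/EiJ and 214 in C57BL/6J on 44% fat, and 564, 21.9 and 574 on 10% fat, with males near 0 in most of these groups. Of all genes 17.2%, 16.8% and 30.3% were called between females and males in NZO/HlLtJ, C57BL/6J and CAST/EiJ. The sex difference of Hao2 in CAST/EiJ was smaller than that in NZO/HlLtJ (NZO/HlLtJ minus CAST/EiJ 4.09, standard error 1.11, edgeR adjusted p = 0.0101) and than that in C57BL/6J (CAST/EiJ minus C57BL/6J -5.24, standard error 1.22, edgeR adjusted p = 0.00318). Both calls rest on a CAST/EiJ male library on 10% fat, replicate 1, the male of that strain with the highest Hao2 level at 0.208 CPM. Without it the differences were 3.66 and -4.81 (edgeR adjusted p = 0.116 and 0.0687). Between NZO/HlLtJ and C57BL/6J the Hao2 sex difference differed by -1.15 with a standard error of 0.66, which did not pass (edgeR adjusted p = 0.659), while limma on the deposited variance-stabilized values gave 0.98 (limma adjusted p = 0.0183).

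Ddah1 was also higher in females of CAST/EiJ, and its NZO/HlLtJ values are a description, since they rest on the males on 10% fat whose diet change chose the gene. NZO/HlLtJ females had 92.1 ± 21.8 CPM and NZO/HlLtJ males 44.7 ± 33.0 CPM, a log2 fold change of 1.43 with a standard error of 0.13. CAST/EiJ females had 95.1 ± 10.4 CPM and CAST/EiJ males 69.9 ± 5.76 CPM, with 0.45 on the log2 scale and a standard error of 0.14 (edgeR adjusted p = 0.0112). In C57BL/6J the difference of 0.27 with a standard error of 0.13, from 180 ± 14.8 CPM in females and 149 ± 12.3 CPM in males, did not pass (edgeR adjusted p = 0.154). Averaged over diets, the log2 sex difference was 1.16 higher in NZO/HlLtJ than in C57BL/6J and 0.98 higher than in CAST/EiJ, with standard errors of 0.19. Over all genes 0.571% and 13.6% were called in these contrasts, and nothing is read from Ddah1 against those shares. On 44% fat the ratio of females to males was 1.39 in NZO/HlLtJ, with overlapping ranges, 1.30 in CAST/EiJ and 1.18 in C57BL/6J, and on 10% fat it was 5.24, 1.43 and 1.24. Between CAST/EiJ and C57BL/6J, where 10.5% of genes were called, the Ddah1 sex difference differed by 0.17 (edgeR adjusted p = 0.642).

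The sex difference of Ddah1 in NZO/HlLtJ was not the same on the 2 diets. NZO/HlLtJ females averaged 102 CPM and males 73.7 CPM on 44% fat, while on 10% fat females averaged 82.2 CPM and males 15.7 CPM with no overlap. For Foxq1 the average over diets hid opposite directions. NZO/HlLtJ females averaged 15.3 CPM and NZO/HlLtJ males 2.93 CPM on 44% fat, while females averaged 6.89 CPM and males 35.5 CPM on 10% fat, and neither pair of ranges overlapped. Averaged over diets, Foxq1 differed between females and males by 0.01 in NZO/HlLtJ, -0.56 in CAST/EiJ and -0.65 in C57BL/6J (edgeR adjusted p = 0.991, 0.310 and 0.258). The Foxq1 sex difference differed between strains by 0.66, 0.57 and 0.09 for NZO/HlLtJ minus C57BL/6J, NZO/HlLtJ minus CAST/EiJ and CAST/EiJ minus C57BL/6J, none past the threshold (edgeR adjusted p = 0.806, 0.562 and 0.958). The within-diet values above contain the diet change and were not tested.

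The first run of identifiers gave female against male log2 fold changes of 1.80 for Ddah1, -0.40 for Foxq1 and 8.37 for Hao2 in NZO/HlLtJ. In CAST/EiJ the first, the second and the third run gave 0.36, 0.44 and 0.53 for Ddah1 and 2.88, 3.21 and 4.61 for Hao2, and in C57BL/6J 0.14, 0.24 and 0.31 for Ddah1 and 8.78, 7.45 and 9.27 for Hao2. Foxq1 had no constant sign over the runs in CAST/EiJ, at 0.06, -1.38 and 0.39, and gave -0.04, -0.25 and -1.40 in C57BL/6J. The values of -0.04 and -0.25 were smaller than its spread of 0.75 log2 CPM within groups, so nothing is read from their sign. The sex difference of NZO/HlLtJ minus CAST/EiJ in the first run was 1.43 for Ddah1 and 5.50 for Hao2, that of NZO/HlLtJ minus C57BL/6J was 1.65 and -0.41, and that of CAST/EiJ minus C57BL/6J was 0.22 and -5.90. Kupffer cell markers moved with sex in NZO/HlLtJ, where all 6 were called higher in females and their summed level was 204 to 345 CPM in females and 128 to 204 CPM in males. Their part in the sex differences was not tested.

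**Figure D3:**
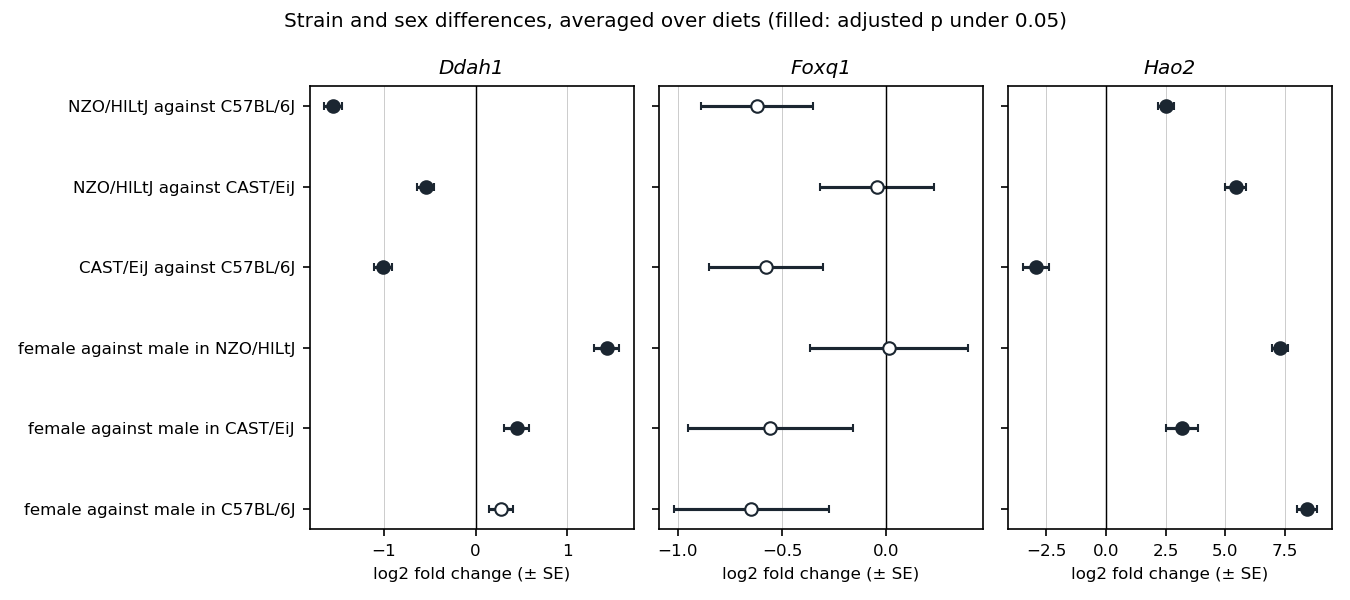
Log2 fold changes with standard errors for strain (averaged over sexes and diets) and for female over male (averaged over diets), with filled points for an edgeR adjusted p under 0.05. Hao2 is higher in females of all 3 strains (7.28, 3.19 and 8.43), and no Foxq1 point is filled. The Ddah1 points of NZO/HlLtJ against CAST/EiJ (-0.54) and of NZO/HlLtJ females over males (1.43) rest on the males on 10% fat that chose the gene. The size of the Ddah1 point of NZO/HlLtJ against C57BL/6J (-1.55) includes those males, and these filled Ddah1 points are a description.

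The closest relatives of both enzymes were not called by diet in NZO/HlLtJ. Per kilobase of merged exon, Ddah1 in NZO/HlLtJ males averaged 18.5 CPM on 44% fat and 3.94 CPM on 10% fat, while Ddah2, the second dimethylarginine hydrolase, averaged 0.940 ± 0.182 and 0.814 ± 0.242 CPM per kilobase. Its diet change of 0.12 in NZO/HlLtJ, with a standard error of 0.15, did not pass the test (edgeR adjusted p = 0.740). Hao1, the liver glycolate oxidase, averaged 113 ± 30.0 CPM per kilobase in NZO/HlLtJ males on 44% fat and 146 ± 18.3 on 10% fat, with a log2 fold change over both sexes of -0.16 and a standard error of 0.10 (edgeR adjusted p = 0.393). Sex went the other way for Hao1, which was lower in NZO/HlLtJ females than in males by -0.69 on the log2 scale with a standard error of 0.10 (edgeR adjusted p = 6.40e-07). Per kilobase, Hao2 reached 64.5 CPM in NZO/HlLtJ females on 44% fat and 70.5 CPM in those on 10% fat, near the 81.2 and 77.8 CPM per kilobase of Hao1 in the same groups.

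Among the other genes of methylarginine, arginine and nitric oxide metabolism, 5 of 32 tested were called on 44% fat in NZO/HlLtJ, all higher, where 5.64% of all genes were called. Oat, ornithine aminotransferase, averaged 1119 ± 365 CPM in males on 44% fat and 458 ± 49.0 CPM in males on 10% fat, with a log2 fold change over both sexes of 0.96 and a standard error of 0.20 (edgeR adjusted p = 0.00214). Asl, argininosuccinate lyase of the urea cycle, rose by 0.46 with a standard error of 0.10 (edgeR adjusted p = 0.00424). Slc7a2, an arginine transporter, rose by 0.66 with a standard error of 0.16 (edgeR adjusted p = 0.00766). Gch1, which makes the cofactor of nitric oxide synthases, was also called. The median of the 32 was -0.01 with 16 genes on either side of 0. In females 0 of the 32 were called by edgeR and 0 by DESeq2, with 5 at an unadjusted p under 0.05 and 0.486% of all genes called, and in males 4 were called. The difference between the sexes was not tested for these genes.

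Of 19 other forkhead genes tested, edgeR called 0 over both sexes of NZO/HlLtJ, DESeq2 called 0, and 4 had an unadjusted p under 0.05. In NZO/HlLtJ males 1 was called, where 2.68% of all genes were, so 1 call in a list of this size says little about the list. That gene was Foxa2, a pioneer factor of liver genes. It had 12.5, 15.03, 15.5 and 18.2 CPM in NZO/HlLtJ males on 44% fat, against 18.3, 32.1, 37.0 and 37.1 CPM in those on 10% fat, in ascending order. All 4 libraries on 44% fat were below those on 10% fat, the nearest by a narrow gap, and the log2 fold change was -1.02 with a standard error of 0.23 (edgeR adjusted p = 0.00982). Without replicate 2 of the NZO/HlLtJ males on 10% fat this call was lost at -0.93 (edgeR adjusted p = 0.0627), and within the first run of identifiers it was -1.30 (edgeR adjusted p = 0.0663). In NZO/HlLtJ females Foxa2 averaged 29.9 ± 3.42 CPM on 44% fat and 24.8 ± 4.90 CPM on 10% fat, which did not pass (edgeR adjusted p = 0.745). Foxo1, the insulin-regulated forkhead factor of gluconeogenesis, averaged 72.5 ± 31.6 CPM in NZO/HlLtJ males on 44% fat and 50.3 ± 13.9 CPM in those on 10% fat (edgeR adjusted p = 0.392).

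Genes of insulin signalling and gluconeogenesis had 2 calls of 26 on 44% fat in NZO/HlLtJ, both higher, a share near the 5.64% of all genes. Fbp1, fructose-1,6-bisphosphatase, averaged 1490 ± 111 CPM in males on 44% fat and 927 ± 247 CPM in males on 10% fat, and over both sexes rose by 0.58 on the log2 scale with a standard error of 0.08 (edgeR adjusted p = 8.32e-06). Pcx, pyruvate carboxylase, rose by 0.30 with a standard error of 0.09 (edgeR adjusted p = 0.0486). In females alone Igfbp2, an insulin-like growth factor binding protein, fell to 30.2 ± 7.59 CPM on 44% fat, against 73.1 ± 25.8 CPM on 10% fat (edgeR adjusted p = 0.0242). The median of the list was 0.06, against 0.00 over all genes tested.

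Genes near Hao2 in function that edgeR called by diet in NZO/HlLtJ were higher on 44% fat, where 5.64% of all genes were called in either direction. Of 19 other genes of glyoxylate and 2-hydroxy acid metabolism 4 were called in NZO/HlLtJ, all higher, with a median of 0.08, while in males alone 2 were called, 10 of the 19 were below 0 and the median was -0.01. In CAST/EiJ edgeR called 1 of the 19 higher, and DESeq2 called 1 higher and 2 lower. In C57BL/6J both tools called 2 of the 19 higher and 0 lower, where edgeR called 0.991% of all genes. The NZO/HlLtJ calls included Phyh, which makes 2-hydroxy acids from branched fatty acids, at 0.31 (standard error 0.06, edgeR adjusted p = 0.00103), Adhfe1 at 0.42 and Ddo at 0.39. Of 53 peroxisome genes 9 were called, all higher, with a median of 0.12 and 39 of 53 above 0. This lean was not particular to NZO/HlLtJ or to its males. In C57BL/6J 42 of 53 were above 0 with a median of 0.10 and 0 called. In CAST/EiJ 35 were above 0 with a median of 0.06 and 3 called higher. In NZO/HlLtJ females 37 were above 0 with a median of 0.12 and 1 called higher. Acaa1b, a peroxisomal thiolase, averaged 1472 ± 198 CPM in males on 44% fat and 724 ± 212 CPM in males on 10% fat, and over both sexes rose by 0.89 (edgeR adjusted p = 0.00427). Hsd17b4, an enzyme of peroxisomal fatty acid oxidation, rose by 0.34 (edgeR adjusted p = 9.17e-04), and Nudt12, a peroxisomal hydrolase, rose by 0.31 (edgeR adjusted p = 0.00266).

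**Figure D4:**
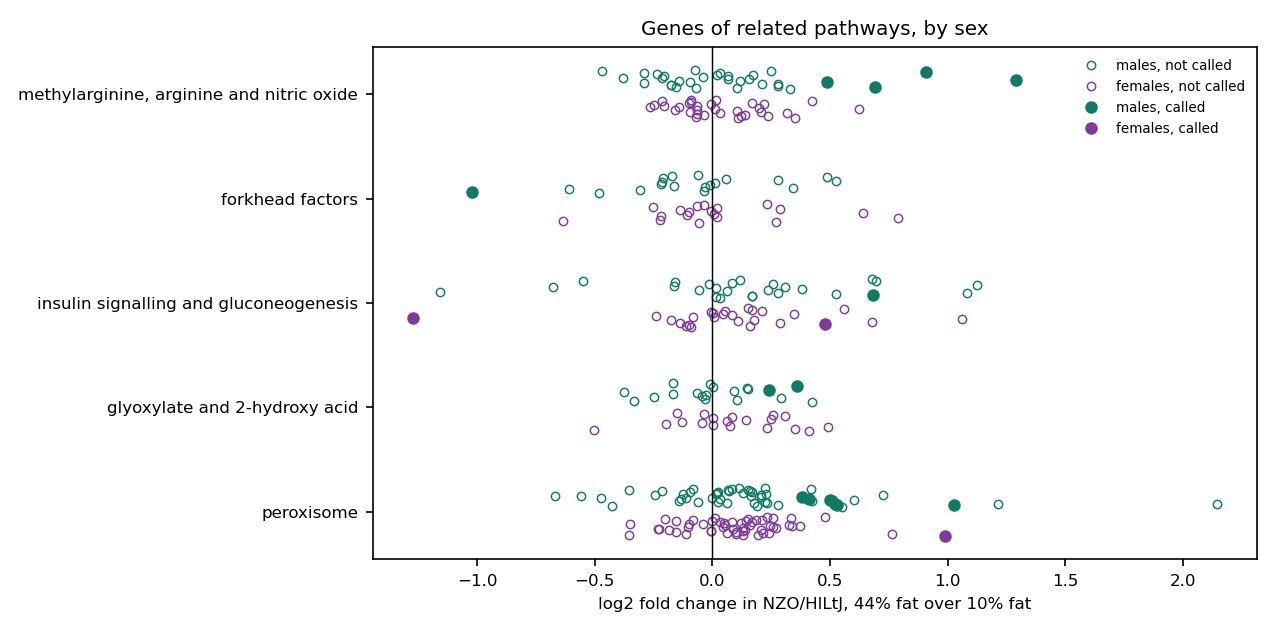
Log2 fold change of 44% fat over 10% fat in NZO/HlLtJ for each tested gene of 5 lists, in males (green, upper row of each list) and females (purple, lower row), with filled points for an edgeR adjusted p under 0.05. Foxa2 is the filled forkhead point at -1.02, and the 6 filled peroxisome points of males lie to the right of 0.

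The genes whose group means followed each member most closely were taken from 10357 genes over the 12 group means, which share libraries and depth. For Ddah1 they included Rin3 (Pearson r 0.918, Spearman rho 0.916), Rpl31-ps8 (0.902 and 0.874), Impa2 (0.884 and 0.916) and Card10 (0.879 and 0.797). Rin3, a Rab5 exchange factor, ranged only from 4.50 to 4.81 log2 CPM over the groups, so the likeness is of order and not of size. For Foxq1 the closest was Foxa2, at a Pearson r of 0.792 and a Spearman rho of 0.727. Wdfy2, Coa3, Pold2 and Zfp507 followed at r of 0.744, 0.743, 0.736 and 0.727, and at rho of 0.545, 0.643, 0.825 and 0.552. Their ranges were narrow too, from 4.39 to 4.65 log2 CPM for Coa3 and from 2.67 to 3.28 for Pold2, the widest of them. For Hao2 the closest was A1bg (r 0.962, rho 0.937), a gene known for female-biased expression in mouse liver. St3gal6, Klhl13, Slc44a2 and Sirpa followed at r of 0.944, 0.930, 0.927 and 0.905, and at rho of 0.818, 0.916, 0.762 and 0.895. Slc44a2 ranged only from 2.68 to 3.20 log2 CPM. A1bg averaged 1579 ± 219 CPM in NZO/HlLtJ females on 44% fat and 1981 ± 934 CPM in those on 10% fat, and 4.62 ± 7.32 and 2.73 ± 3.71 CPM in the males on the same diets. Unlike Hao2, it overlapped between diets in NZO/HlLtJ males.

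The 3 genes did not follow one another over the groups, with a Pearson r of -0.25 for Ddah1 and Foxq1, 0.29 for Ddah1 and Hao2 and -0.28 for Foxq1 and Hao2 over 12 group means. Around the group means, where no diet, sex or strain difference remains, Ddah1 and Hao2 had a Pearson r of 0.316 and a Spearman rho of 0.268 over 47 libraries (permutation p = 0.0321 and 0.0969, adjusted over 3 pairs p = 0.0964 and 0.291), which did not pass. With residuals also centred on the run of identifiers r was 0.421 and passed (adjusted permutation p = 0.0181), and in females alone it was -0.106 (adjusted permutation p = 0.594). Without the 2 libraries farthest from the median of Ddah1, both NZO/HlLtJ males on 10% fat, r was 0.295, and within the 3 runs of identifiers it was 0.431, 0.253 and 0.526. Ddah1 and Foxq1 had an r of 0.115 and a rho of 0.169 (permutation p = 0.541 and 0.311, adjusted p = 0.797 and 0.467), 0.0322 without the 2 farthest libraries, and -0.0528, 0.0504 and 0.0900 within the runs. Foxq1 and Hao2 had an r of -0.0422 and a rho of -0.0427 (permutation p = 0.797 and 0.799, adjusted p = 0.797 and 0.799), -0.0271 without the 2 farthest, and -0.302, -0.340 and 0.434 within the runs. The spread around the group means was 0.28 log2 CPM for Ddah1, 0.75 for Foxq1 and 0.83 for Hao2. Males of CAST/EiJ and C57BL/6J had at most 10 Hao2 counts in a library. Counting error is therefore part of the Hao2 residuals there, in its correlations and in its spread.

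Neighbours were the 6 nearest tested genes of each member, leaving out genes with Gm or Rik names. Of these, edgeR called 0 around Ddah1, 2 around Foxq1 and 1 around Hao2 over both sexes of NZO/HlLtJ. Of all genes 5.64% were called there. In males the calls were 0, 2 and 0, where 2.68% of all genes were called, and in females 0, 0 and 1, where 0.486% were. Of the 6 neighbours of Ddah1, from Col24a1 to Syde2, edgeR called 0 over both sexes, 0 in males and 0 in females. DESeq2 called 0 in each, and 0 had an unadjusted p under 0.05. The nearest protein-coding neighbour, Bcl10, changed by 0.06 in males with a standard error of 0.14. Rpl36a-ps2, a pseudogene that overlaps Ddah1 on the same strand, reached at most 1.12 CPM in any library. Around Foxq1, Dusp22 (0.43 in NZO/HlLtJ males, standard error 0.12, edgeR adjusted p = 0.0357) and Serpinb1a (1.74, standard error 0.47, edgeR adjusted p = 0.0359) were called higher on 44% fat, opposite to Foxq1 and 874 and 1287 kilobases away. A530084C06Rik, a tested gene left out of the neighbours by its name, overlaps Foxq1 on the other strand. It averaged 0.200 ± 0.0489 CPM in NZO/HlLtJ males on 44% fat and 0.454 ± 0.268 CPM in those on 10% fat. Without the strand setting of the counting, reads of the overlapping genes cannot be told apart, and the deposited Foxq1 count was not a whole number in any of the 47 libraries.

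Next to Hao2 lies the Hsd3b cluster of 3-beta-hydroxysteroid dehydrogenases, near-identical copies whose counts are uncertain. Hsd3b1, with its middle 27.9 kilobases from that of Hao2, was also higher in females of NZO/HlLtJ (edgeR adjusted p = 4.13e-08). It had 0.173, 0.214, 0.532 and 1.11 CPM in NZO/HlLtJ females on 44% fat, against 7.57, 8.33, 8.51 and 11.96 CPM in those on 10% fat, in ascending order. Those ranges lie far apart, and the log2 fold change was -4.14 with a standard error of 0.68 (edgeR adjusted p = 0.00302), while Hao2 changed by -0.13 in the same females. C57BL/6J females averaged 0.262 ± 0.264 CPM of Hsd3b1 on 44% fat and 1.44 ± 0.832 CPM on 10% fat. In NZO/HlLtJ males it averaged 0.0197 CPM on 44% fat and had no count on 10% fat. Hsd3b2 was called lower on 44% fat over both sexes of NZO/HlLtJ, by -0.79 with a standard error of 0.21 (edgeR adjusted p = 0.0203), and the other 4 neighbours of Hao2 (Hsd3b3, Wars2, Wdr3 and Gdap2) were not called.

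**Figure D5:**
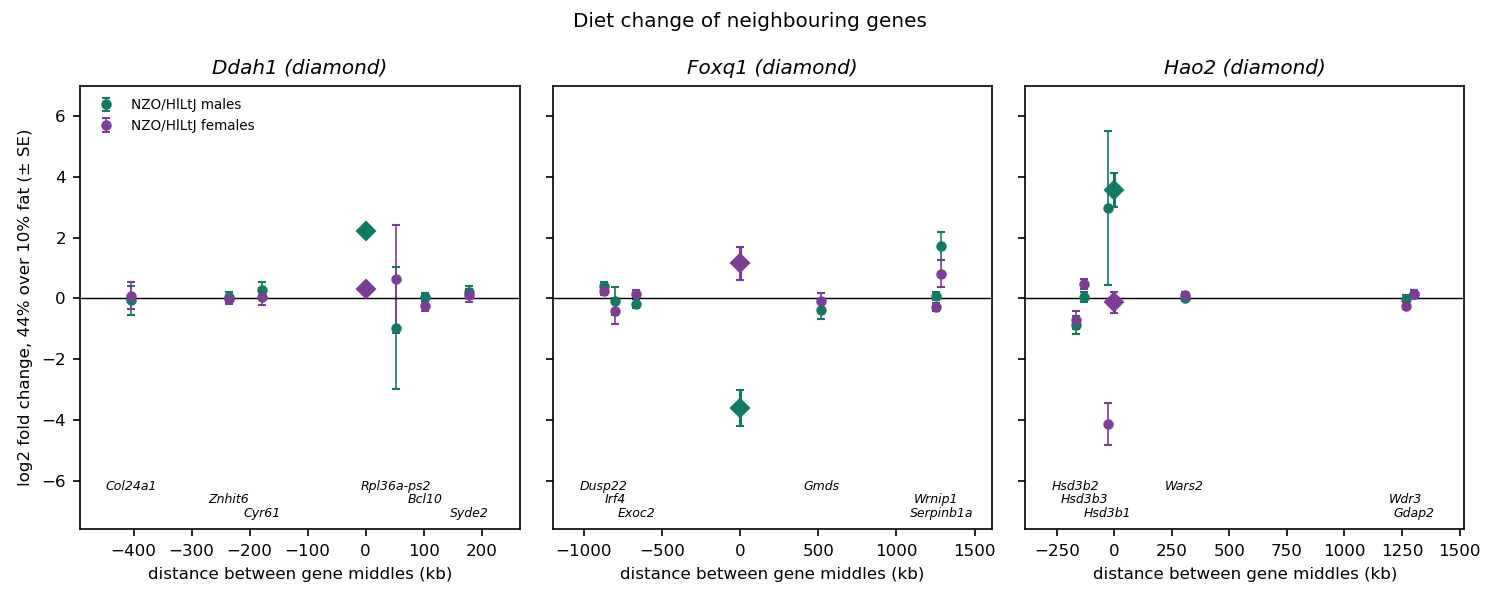
Log2 fold change of 44% fat over 10% fat (with standard error) in NZO/HlLtJ males (green) and females (purple) for each member (diamond, at 0) and its 6 nearest tested genes, by distance between gene middles in kilobases. Genes with Gm or Rik names were left out. Near Hao2, Hsd3b1 is low in females on 44% fat (-4.14) while Hao2 itself is at -0.13.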

How the data were processed

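Polyadenylated liver RNA was sequenced as paired-end reads, per the labels. For every gene the authors deposited an expected count, not whole in 20.3% of values at a tolerance of 1e-06, and a variance-stabilized value on a log2 scale. The submitters' processing notes name GRCm38 and DESeq2. No source used here names the aligner, counting tool, strand setting or annotation release.

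Expected counts were rounded and fitted in edgeR 4.0.16 (R 4.3.3; filterByExpr, TMM, robust quasi-likelihood fit) with 12 group means and 35 residual degrees of freedom. Adjusted p-values are Benjamini-Hochberg over 16650 genes, called under 0.05, after a check on simulated counts. The closest pair of libraries in any group differed by a chi-square of 24.6 per gene, where sampling noise alone gives about 1, so none was merged. Alternatives used DESeq2 1.42.0, limma 3.58.1, other filters, scaling and sets of libraries. Correlations used 100000 permutations within groups, two-sided. Promoters came from RefSeq, which matched 2 of the 3 members. Intervals and floors cover counting error only.

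The 3 genes, gene lists and alternatives were chosen with earlier results of these data known. Named genes were the members and the 5 genes most like each over group means (no Gm or Rik names, at least 1 log2 CPM). Also named were up to 4 genes per list with the smallest diet p in NZO/HlLtJ, Ddah2, Hao1 and 3 neighbours on either side. The neighbours had no Gm or Rik names either. Some genes that this rule names are not reported here. Gch1, Foxo1, Alb, Apoa1 and Fgb were named after their values were seen.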

Additional observations from a re-analysis of the deposited data

Results flagged for a closer look

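In 2 of the 33 sets of 4 libraries of a group and member, a library stood apart from the other 3 by a Dixon criterion that chance meets in about 1 of 20 sets. Foxq1 reached 31.8 CPM in replicate 2 of the C57BL/6J females on 44% fat, where the others had 8.85 to 11.1 CPM. That library also had 41.0 CPM of the pancreatic gene Cpa1, and the part of this in its Foxq1 level was not tested. Hao2 reached 0.461 CPM in replicate 4 of the NZO/HlLtJ males on 10% fat, where the others had 0.166 to 0.207 CPM. The same library had the highest Ddah1 level of its group, at 25.5 CPM.

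Sex differences stood apart between strains in 4 cases. The Ddah1 difference of females over males, averaged over diets, was higher in NZO/HlLtJ than in C57BL/6J by 1.16 and than in CAST/EiJ by 0.98 on the log2 scale. Both values rest on the NZO/HlLtJ males on 10% fat, whose diet change chose the gene, and are a description. On 44% fat the ratio of females to males was 1.39 in NZO/HlLtJ, with overlapping ranges, 1.30 in CAST/EiJ and 1.18 in C57BL/6J. The Hao2 difference was larger in NZO/HlLtJ than in CAST/EiJ by 4.09 (edgeR adjusted p = 0.0101), and smaller in CAST/EiJ than in C57BL/6J, at -5.24 (edgeR adjusted p = 0.00318). Without replicate 1 of the CAST/EiJ males on 10% fat these became 3.66 and -4.81 (edgeR adjusted p = 0.116 and 0.0687).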

How the results depend on the processing

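No paired analysis was possible because the labels carry no replicate numbers, and those used here follow the order of the samples. Foxq1 was the least stable member. NZO/HlLtJ against C57BL/6J passed with DESeq2 (-0.63), RLE factors (-0.63) and a stricter filter of 1 CPM in 4 libraries (-0.63), and CAST/EiJ against C57BL/6J passed with DESeq2 (-0.58). With identifier run as a covariate, Foxq1 was 0.12 in NZO/HlLtJ against CAST/EiJ and -0.038 in female against male NZO/HlLtJ, and with limma on the deposited variance-stabilized values 0.058 and -0.12. The same limma fit gave 0.98 (limma adjusted p = 0.0183) for the Hao2 sex difference of NZO/HlLtJ minus C57BL/6J, where edgeR gave -1.15, and diet changes of 0.55 in NZO/HlLtJ and -0.61 in CAST/EiJ for Hao2, all values on its own scale. The cause of these shifts was not tested.

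Single runs of identifiers moved further values by more than the spread within groups. For diet in NZO/HlLtJ the first run gave -0.05 for Ddah1 in females, and 2.66 for Ddah1 and 2.36 for Hao2 in males. Strain and sex values by run were added after the data were seen. In the first run Hao2 was 4.33 in NZO/HlLtJ against CAST/EiJ, and females against males of NZO/HlLtJ gave 1.80 for Ddah1 and 8.37 for Hao2. The sex differences there were 1.65 for Ddah1 and -0.36 for Foxq1 in NZO/HlLtJ minus C57BL/6J, and 1.43, -0.46 and 5.50 for Ddah1, Foxq1 and Hao2 in NZO/HlLtJ minus CAST/EiJ. Hao2 in CAST/EiJ against C57BL/6J was -1.99, -3.96 and -4.01 in the first, the second and the third run. Females against males gave, in the second and the third run, -1.38 and 0.39 for Foxq1 in CAST/EiJ, and in the third -1.40 for Foxq1 in C57BL/6J and 4.61 for Hao2 in CAST/EiJ. Hao2 in C57BL/6J was 7.45 in the second and 9.27 in the third run. The sex difference of CAST/EiJ minus C57BL/6J was -1.12 for Foxq1 and -4.24 for Hao2 in the second run and 1.79 for Foxq1 in the third.

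Counts of called genes also moved. DESeq2 called 206 and limma 162 genes in the NZO/HlLtJ minus C57BL/6J sex difference, against 95. By diet DESeq2 called 336 genes in C57BL/6J and 325 in CAST/EiJ, against 165 and 149. The run covariate gave 99 in CAST/EiJ, and leaving out the 5 libraries with at least 20 CPM of Cpa1 gave 61 in C57BL/6J. Ddah1 and Hao2 had an r of 0.42 with residuals centred on the run (adjusted p = 0.0181) and -0.11 in females alone, an alternative added after the data were seen.

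Leaving out each library gave 532 to 1178 called genes by diet in NZO/HlLtJ (532 without replicate 2 of the males on 10% fat, 613 without replicate 4 of the females on 44% fat), 56 to 369 in C57BL/6J and 30 to 417 in CAST/EiJ. Foxq1 ranged from -0.72 to -0.45 in NZO/HlLtJ against C57BL/6J, -0.76 to -0.40 in CAST/EiJ against C57BL/6J, -0.14 to 0.14 in NZO/HlLtJ against CAST/EiJ, -0.15 to 0.21 between the sexes of NZO/HlLtJ, and -0.26 to 0.46 in the CAST/EiJ minus C57BL/6J sex difference. Hao2 ranged from 3.66 to 4.42 in the NZO/HlLtJ minus CAST/EiJ sex difference and from -5.71 to -4.81 in that of CAST/EiJ minus C57BL/6J. Ddah1 kept its sign and its side of the threshold in every strain and sex comparison in all 47 of these refits. The Ddah1 comparisons that involve NZO/HlLtJ remain a description, since leaving out 1 library does not undo the choice of the gene. Males of CAST/EiJ and C57BL/6J had too few Hao2 counts for a diet change.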

Other observations

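Lists of 15 male-biased and 16 female-biased liver genes, chosen after values were seen, are described here with no test of either list. On 44% fat against 10% fat in NZO/HlLtJ males, 15 of the 16 female-biased genes had a log2 fold change above 0, with a median of 0.78. Of the 15 male-biased genes 14 had one below 0, with a median of -0.48, and the median over all genes tested was -0.00065. Few single genes were called in that contrast. EdgeR called 1 of the 16 higher and 0 of the 15, where 2.68% of all genes were called. In NZO/HlLtJ females the medians were -0.22 and 0.18. Over both sexes the median of the female-biased genes was 0.40 in NZO/HlLtJ, -0.50 in CAST/EiJ and -0.62 in C57BL/6J. That of the male-biased genes was -0.15, 0.12 and 0.02 in the same order.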
